A study of Nothobranchius furzeri with 20 samples.

Results

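The 150 longest transcripts of killifish muscle were described here, chosen by length among genes past a floor of abundance in every library, and not by their fold changes. The length of a gene was the median, over the 20 libraries, of the length that its count, its deposited RPKM value (reads scaled to gene length and to library size) and the library total imply together. Genes with an RPKM of at least 1 in every library were ranked, 7616 of the 26739 genes in the tables, and the first 150 were taken. They ran from 88546 down to 10513 bases, with a median of 12250 bases against 2291 bases for the remaining 7466 genes. The last member inside the limit had 10513 bases and the first gene outside it had 10504 bases, so the limit cuts through a dense range. What was included in a gene's length (exons, untranslated parts, alternative forms) is not stated in the labels or files, and the lengths are those of the authors' gene models.

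The libraries came from muscle of male Nothobranchius furzeri, the turquoise killifish, which lives for months in seasonal ponds. All fish were of strain MZM-04/10p. Of the fish aged 9 weeks, 5 libraries were labelled with no perturbation and 5 with swim-tunnel, a channel with flowing water that makes the fish swim. A further 10 libraries came from swim-tunnel fish aged 27 weeks. Unexercised fish of 27 weeks were not analysed here. Age was therefore compared within swim-tunnel fish, and the comparison with unexercised 9-week fish joins age and swimming. The labels do not say whether libraries came from separate animals, so p-values measure only the spread between these samples, which may be technical.

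Muscle is known for some of the largest proteins in the body. Titin is a molecular spring of the contractile unit, the sarcomere, and nebulin lies along its thin filaments. When reads are counted per gene, a long transcript gives more reads per molecule than a short one, so a small number of long genes can hold a visible part of a muscle library. Abundance below means counts scaled to library size (CPM), which is what the share of a library and the abundance classes rest on, and transcript levels of different genes are compared only per kilobase. The deposited identifiers are not paired with gene names, 0 of 26739 matched the 38438 genes of the RefSeq table of the assembly NfurGRZ-RIMD1, and no member can be assigned a role. For the same reason the label muscle could not be checked against fibre or other cell type markers. Members are named by their length, and 4 of them by identifier as well.

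Library totals ran from 24333849 to 38571967 gene counts, and the lowest count of any member in any library was 348, so counting error was small for all members. The 27-week libraries fell into separate sets. On the first principal component of all tested genes, libraries 1 to 5 lay between 67.4 and 81.8, libraries 6 to 10 between -13.6 and 19.2, and the 9-week libraries at -19.2 or lower. The members alone gave the same order, with libraries 1 to 5 between 4.81 and 6.55, libraries 6 to 10 between -0.53 and 1.48, and the 9-week libraries at -1.59 or lower on the first component of the 150 genes. The labels of all 10 libraries are alike, and the counts of calls by age, with their shares among like genes, are given with and without each set of 5. The scaling factors of edgeR (TMM, which correct for a few very abundant genes) also differed, from 1.11 to 1.24 in libraries 1 to 5, from 0.776 to 0.983 in libraries 6 to 10 and from 0.889 to 1.16 at 9 weeks.

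The 150 members together held between 4.24% and 6.42% of all gene counts, and less at 27 weeks than at 9 weeks. In unexercised 9-week libraries 1 to 5 their share was 6.42%, 5.70%, 5.63%, 4.90% and 5.63%, a mean of 5.66% ± 0.539 (SD, n = 5). In swim-tunnel 9-week libraries 1 to 5 it was 6.09%, 5.03%, 5.83%, 6.10% and 6.31%, a mean of 5.87% ± 0.499 (SD, n = 5). In the 27-week libraries it ran from 4.24% to 4.94% with a median of 4.63%, a mean of 4.60% ± 0.242 (SD, n = 10). All 27-week libraries lay below all swim-tunnel libraries of 9 weeks, and unexercised library 4 was the 9-week library that fell inside the 27-week range. The share did not separate the sets of 27-week libraries, with 4.61% ± 0.256 (SD, n = 5) in libraries 1 to 5 and 4.59% ± 0.257 (SD, n = 5) in libraries 6 to 10. No test was made of this sum, since it is a score over chosen genes.

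Most of this difference lay in a small number of members, which also held most of the members' share. The 5 most abundant members held 3.95% ± 0.296 (SD, n = 5) of counts in swim-tunnel fish of 9 weeks and 2.99% ± 0.215 (SD, n = 10) at 27 weeks, a difference of -0.95 percentage points out of -1.28 for all 150. The remaining members held 1.93% ± 0.214 (SD, n = 5) and 1.60% ± 0.149 (SD, n = 10). Against unexercised fish the 5 most abundant accounted for -0.65 of -1.06 points. In those fish they held 3.65% of counts, out of 5.66% for all 150. The remaining members went from 2.01% there to 1.60%, so the lower share was not confined to the 5. Between the 9-week groups the share of all 150 was 0.22 points higher with swimming, less than the SD in either group. The 5 most abundant accounted for 0.30 points of this and the remaining members for -0.08. Without unexercised library 4 the mean share in unexercised fish was 5.85%, against 5.87% with swimming. Of the 150 members, 87 had a lower mean share at 27 weeks than in swim-tunnel fish of 9 weeks and 63 a higher one.

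**Figure D1:**
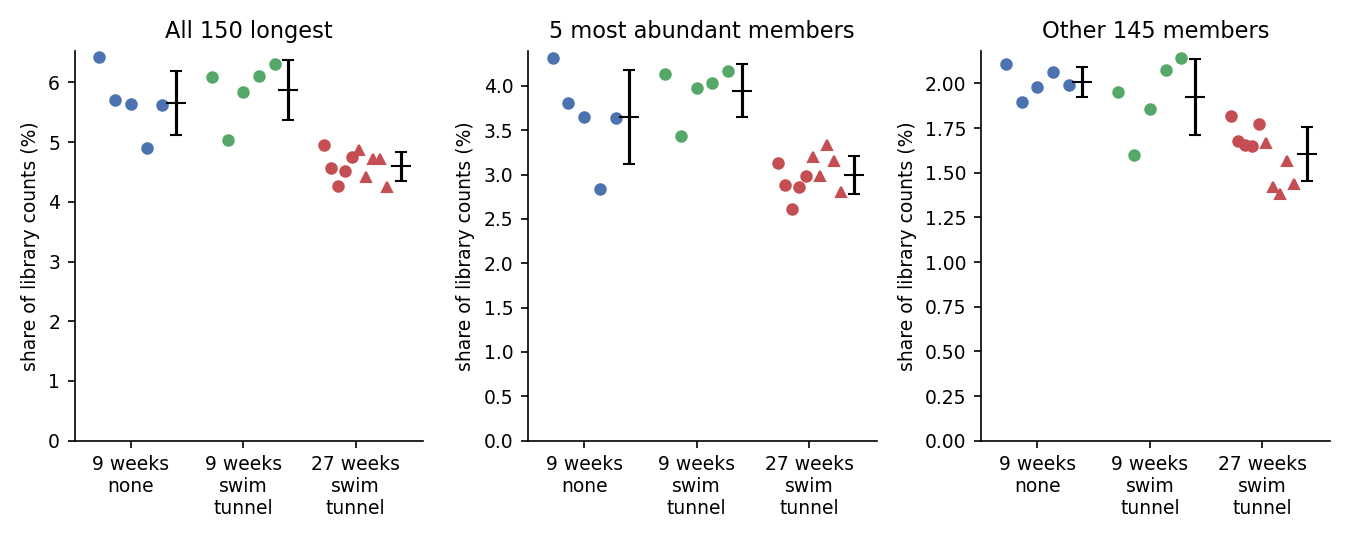
Share of library counts, in percent, held by all 150 longest genes, by their 5 most abundant members and by the rest, one point per library with the group mean and SD beside it; triangles are 27-week libraries 6 to 10. For all members the 27-week libraries lie between 4.24% and 4.94%, below all 5 swim-tunnel libraries of 9 weeks, while the rest are lower in libraries 6 to 10 (1.49%) than in libraries 1 to 5 (1.71%) on average.

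The share is a fraction of each library and depends on what the other genes do. After TMM scaling the summed level of the members was 59703 ± 4709 CPM (counts scaled to a fixed library size; SD, n = 5) in swim-tunnel fish of 9 weeks, 56889 ± 9168 CPM (SD, n = 5) in unexercised fish and 46278 ± 8194 CPM (SD, n = 10) at 27 weeks. On this scale the 27-week libraries separated, with 34389 to 44118 CPM in libraries 1 to 5 and 48690 to 60651 CPM in libraries 6 to 10. Library 8 of the latter lay inside the 55406 to 65680 CPM of the swim-tunnel libraries of 9 weeks. The unexercised libraries ran from 42280 CPM in library 4, with 56007 CPM the next lowest, to 66908 CPM. That whole range held 27-week library 1 and libraries 6 to 10. All single-gene levels below are TMM-scaled CPM.

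The longest member, of 88546 bases, was also the most abundant of the 150 in counts. It stood at 17460, 12804, 15285, 7748 and 12622 CPM in unexercised 9-week libraries 1 to 5. In swim-tunnel libraries 1 to 5 of 9 weeks it stood at 14680, 12298, 16317, 14343 and 16460 CPM. At 27 weeks it ran from 6923 to 14635 CPM with a median of 10170 CPM. It fell with age in swim-tunnel fish, with a log2 fold change of -0.55 with SE 0.17 (adjusted p = 0.0203, edgeR), though 27-week library 8 lay inside the range of the swim-tunnel libraries of 9 weeks. The call was lost without swim-tunnel library 3 (log2 fold change -0.51) or 5 (-0.51) of 9 weeks and without 27-week libraries 1 to 5 (-0.34). Against unexercised fish the log2 fold change of -0.38 did not pass (SE 0.17, adjusted p = 0.0887, edgeR), and it did without unexercised library 4 (-0.52), without 27-week library 8 (-0.41) and without 27-week libraries 6 to 10 (-0.66).

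The second longest member, of 67211 bases, followed a similar course over the libraries. It stood at 14458, 11580, 11954, 5967 and 11646 CPM without exercise and at 12967, 10162, 15330, 11876 and 13877 CPM with swimming at 9 weeks. At 27 weeks it ran from 6418 to 12855 CPM with a median of 8939 CPM. Unexercised library 4 was the lowest 9-week library for both of these members, and 27-week library 3 was the lowest of all but that one for the 67211-base member and the lowest of all for the 88546-base member. The log2 fold change with age in swim-tunnel fish was -0.46 (SE 0.18, adjusted p = 0.0528, edgeR), just short of the threshold, and it passed in 9 of the 27 alternatives that gave a value. Without 27-week libraries 6 to 10 it was -0.77 and passed.

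Among the next members in abundance, the one of 21963 bases was lowest in 27-week libraries 1 to 5. It stood at 4987, 4644, 4878, 4171 and 4466 CPM without exercise and at 3192, 4262, 3560, 4012 and 4136 CPM with swimming at 9 weeks. At 27 weeks libraries 1 to 5 had 1806 to 2485 CPM and libraries 6 to 10 had 3129 to 3739 CPM, all below the unexercised libraries. It fell against unexercised fish, with a log2 fold change of -0.76 with SE 0.16 (adjusted p = 0.000923, edgeR). It also fell against swim-tunnel fish, by 0.48 on the log2 scale (SE 0.16, adjusted p = 0.0241, edgeR), a call that was lost without 27-week libraries 1 to 5 (-0.20), without swim-tunnel library 2 (-0.44), 4 (-0.47) or 5 (-0.46), and with only the compared groups fitted (-0.46). The abundant member of 10753 bases fell from 4576 ± 837 CPM in swim-tunnel fish of 9 weeks to 3138 ± 763 CPM (mean ± SD, n = 5 and n = 10), with a log2 fold change of -0.54 with SE 0.17 (adjusted p = 0.0176, edgeR), which was not past the threshold without 27-week libraries 1 to 5 (-0.30) or without swim-tunnel library 2 (-0.47) or 3 (-0.48). The member of 12125 bases did not follow these. It stood at 3374 to 4935 CPM without exercise, at 3430 to 5625 CPM with swimming, at 3574 to 4228 CPM in 27-week libraries 1 to 5 and at 5612 to 7209 CPM in libraries 6 to 10. Its log2 fold change with age in swim-tunnel fish was 0.29 (SE 0.18, adjusted p = 0.24, edgeR), and 0.58 without libraries 1 to 5, which passed.

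**Figure D2:**
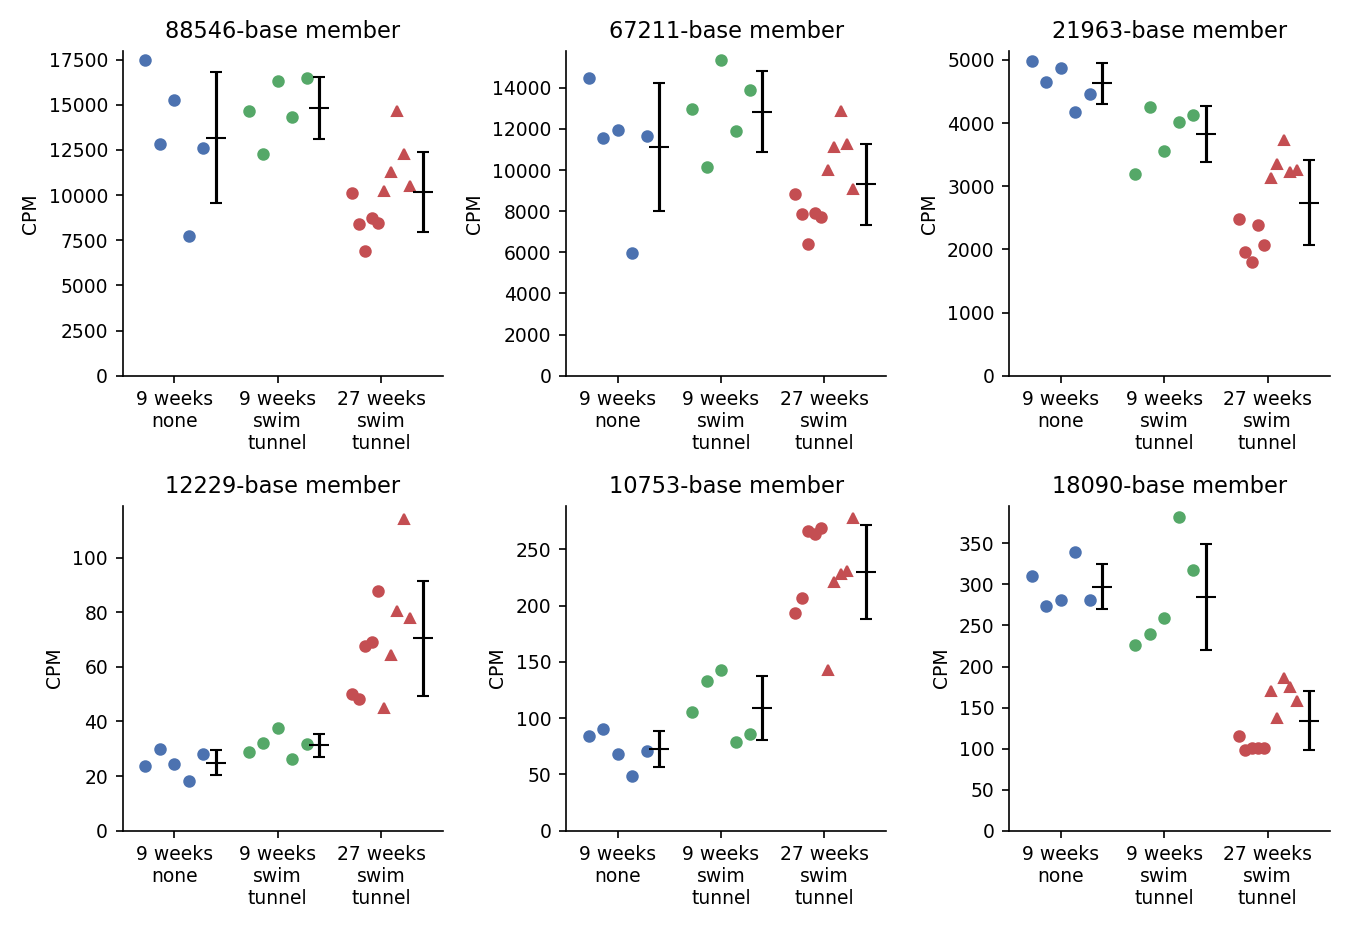
TMM-scaled CPM of 6 members in each library, with group means and SDs; triangles are 27-week libraries 6 to 10, and the 10753-base panel shows Nfu_g_1_010744. The 88546-, 67211- and 21963-base members are lower in 27-week libraries 1 to 5 than in libraries 6 to 10 on average, the 12229-base and 10753-base members are higher at 27 weeks, and the 18090-base member is lower in every 27-week library than in every 9-week library.

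Per kilobase, the order of these members changed. The 12125-base member had the highest mean level over all libraries, 370.5 CPM per kilobase, and the abundant 10753-base member had 344.9. The 21963-, 67211- and 88546-base members had 158.75, 158.36 and 136.39 CPM per kilobase. The median of the 150 members was 4.11 and the lowest was 1.45 CPM per kilobase. The other 3 of the 5 longest members, of 28410, 26901 and 25927 bases, stood at 7.13, 4.71 and 6.67 CPM per kilobase, and none of them passed the test in any comparison, with log2 fold changes between -0.22 and 0.16.

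The comparison of swim-tunnel with unexercised fish at 9 weeks addressed swimming in young fish. None of the 150 members passed the test (edgeR quasi-likelihood, Benjamini-Hochberg adjusted over 16653 tested genes, threshold 0.05), where 0.108% of all tested genes were called higher and 0.0721% lower. At an unadjusted p under 0.05 there were 23 members, or 15.3%, against 13.6% of all tested genes. DESeq2 called 1 member higher and 1 lower, beside 1.67% and 1.93% of genes of like CPM and 1.23% and 0.889% of all tested genes. Over the members, the median log2 fold change was -0.04, and that of all tested genes was 0.04. Single members ran from -0.69 to 0.63, with 83 below and 67 above 0, and none had a call. The groups did not overlap for 4 members that were higher and 5 that were lower with swimming, or 2.67% and 3.33%, against 3.02% and 2.11% of all tested genes.

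Set against the remaining genes of like abundance, the members did not stand out with swimming. For this the 7616 genes were divided into 10 equal classes by mean log2 CPM, and each member's log2 fold change was read against the median of the remaining genes in its class. The members lay in the upper 5 classes, with 5, 16, 42, 37 and 50 of them from the sixth class to the highest. The highest class spanned mean levels from 86.6 to 119023 CPM, so like abundance is a loose match for the members in it. The median difference from the class was 0.01, and 78 members lay above and 72 below their class. With classes by level per kilobase the median difference was -0.06. Among the remaining genes of like CPM, 2.79% were higher and 4.11% lower with no overlap. No test was made of this difference, here or for age.

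With age in swim-tunnel fish, more members fell than rose, as did the other abundant genes. Of the 150, 15 rose and 43 fell from 9 to 27 weeks (edgeR adjusted p under 0.05), or 10.0% and 28.7%, where 14.8% of all tested genes were called higher and 16.8% lower. Among the remaining genes with an RPKM of at least 1 in every library, 13.4% were called higher and 25.8% lower. When these genes were weighted to the members' abundance classes, 12.1% were called higher and 30.5% lower, close to the members' own shares. Weighted by classes of level per kilobase they gave 13.1% and 23.4%. Changes of at least 2-fold were few, 3 members higher and 4 lower, or 2.00% and 2.67%, against 6.43% and 4.68% of all tested genes. The latter did not have to reach the RPKM floor in every library. Among the remaining genes that did, the shares were 3.64% and 5.59%. In a bulk sample, fewer cells of a type and less RNA per cell cannot be told apart.

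The size of the age difference was near that of like genes as well. The members' median log2 fold change was -0.16, against -0.07 for the remaining genes and 0.03 for all tested genes. With upper-quartile scaling, which moved the median of all tested genes by 0.09, the members stood at -0.07. Against the remaining genes of like CPM the median difference was -0.02, with 78 members below and 72 above their class and a middle range (quartiles) from -0.38 to 0.26. The remaining genes of the same classes had quartiles of -0.40 and 0.35 around their class medians. Against classes of level per kilobase the median difference was -0.07. For classes of CPM it stood at -0.07 when 27-week libraries 1 to 5 were left out and at 0.10 when libraries 6 to 10 were. With each single library left out in turn it ran from -0.06 to 0.03, so its sign rested on which libraries were used.

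**Figure D3:**
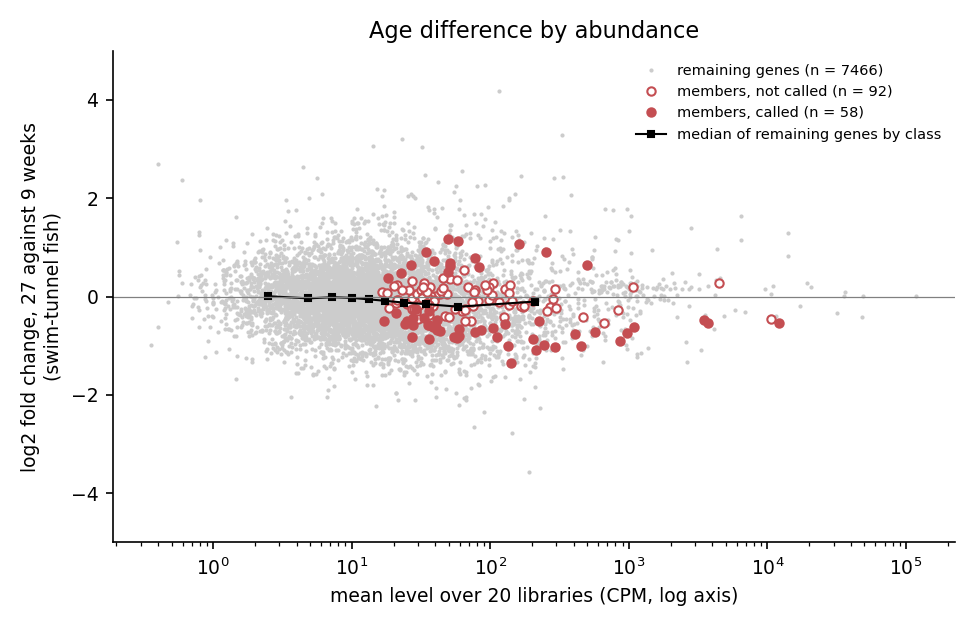
Log2 fold change of 27 against 9 weeks in swim-tunnel fish against mean level (CPM, log axis) for members, filled where past the threshold, and for the remaining genes in grey; black squares are the medians of the remaining genes in 10 abundance classes. Members scatter around the class medians, with 72 above and 78 below.

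The members differed among themselves by length and by abundance. Of the 50 longest, from 13749 to 88546 bases, 1 rose and 20 fell with age in swim-tunnel fish, with a median log2 fold change of -0.26. Remaining genes weighted to the abundance classes of these 50 were called higher in 12.5% and lower in 29.9%, and all tested genes in 14.8% and 16.8%. The next 50 held 7 that rose and 13 that fell, with a median of -0.11, beside 12.0% and 30.6% of like genes. The last 50 held 7 and 10, with a median of -0.10, beside 12.0% and 31.1% of like genes. For the 50 longest, the median difference from genes of like CPM was -0.11. With classes by level per kilobase it was -0.22, beside 13.0% called higher and 24.5% lower. Without 27-week libraries 1 to 5, 2 of the 50 longest were called higher and 19 of the 50 lower. Beside them stood 19.3% and 21.9% of genes of like CPM and 9.95% and 13.5% of all tested genes, and the median difference was -0.30. Without libraries 6 to 10, 4 of the 50 were called higher and 28 of the 50 lower. Beside them stood 14.1% and 53.8% of genes of like CPM and 22.4% and 28.1% of all tested genes, and the median difference was -0.05. With classes by level per kilobase it was -0.20 without libraries 1 to 5, beside 10.1% and 19.1%. Without libraries 6 to 10 it was then -0.28, beside 21.8% and 38.5%. By abundance, 3 of the 50 members with most counts rose and 19 fell, beside 13.4% and 26.7% of like genes. Their median log2 fold change was -0.25 and their median difference from like genes -0.15, which was -0.38 without libraries 1 to 5 and -0.13 without libraries 6 to 10. With all libraries and classes by level per kilobase this difference was -0.10, beside 13.1% called higher and 30.6% lower. With these classes it was -0.19 without libraries 1 to 5 and -0.18 without libraries 6 to 10. These splits were described and not tested.

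Across the whole range of length, no steady trend was seen. In 10 equal classes of the 7616 genes by length, from shortest to longest, the median log2 fold change with age in swim-tunnel fish was -0.03, -0.04, -0.06, -0.12, -0.12, -0.07, -0.04, -0.10, -0.08 and -0.10. Against genes of like CPM, the longest class, from 6653 bases upwards, had a median difference of 0.03 and the shortest class one of 0.01. Spearman's rho of length with the log2 fold change was -0.03 across the genes, which are not independent replicates, and -0.18 across the 150 members.

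**Figure D4:**
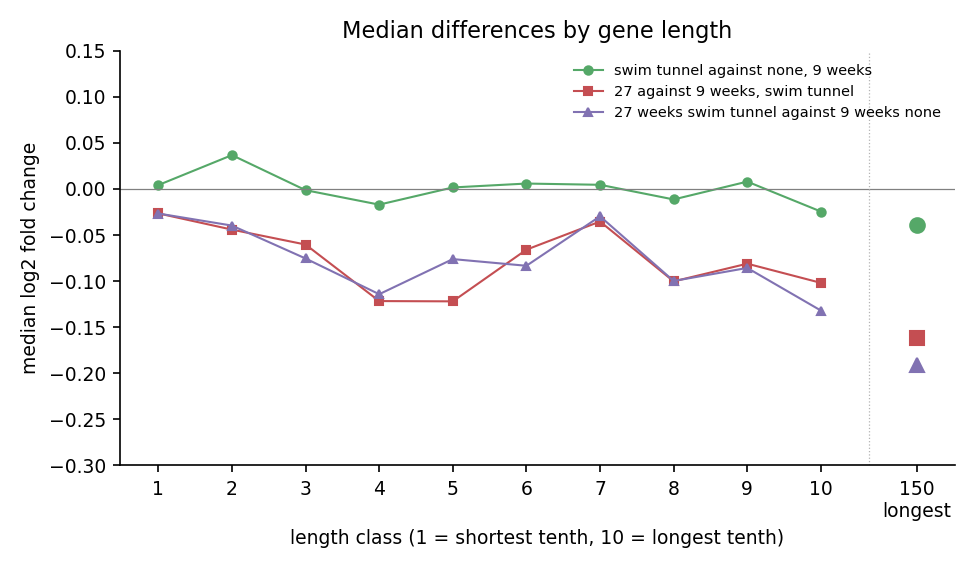
Median log2 fold change in 10 equal classes of gene length and, at the right, of the 150 longest genes, for the 3 comparisons. The medians of the classes for 27 against 9 weeks in swim-tunnel fish stay between -0.12 and -0.03, and the 150 longest stand at -0.16.

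The largest changes among members were found in both directions. Nfu_g_1_003144, of 12229 bases, rose most with age in swim-tunnel fish. It stood at 23.8, 30.0, 24.5, 18.4 and 28.1 CPM without exercise and at 28.7, 32.2, 37.5, 26.3 and 31.9 CPM with swimming at 9 weeks. At 27 weeks it ran from 44.8 to 114.2 CPM with a median of 68.4 CPM, above all 9-week libraries. Its log2 fold change was 1.17 (SE 0.20, adjusted p = 0.000213, edgeR), and between the 9-week groups it was 0.33 (SE 0.21, adjusted p = 0.545, edgeR).

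Nfu_g_1_010744, of 10753 bases, rose as well. It stood at 84.0, 90.0, 68.2, 49.0 and 70.8 CPM without exercise and at 105.6, 133.3, 142.43, 78.5 and 85.7 CPM with swimming at 9 weeks. At 27 weeks it ran from 142.9 to 277.4 CPM with a median of 229.4 CPM, with no overlap with either 9-week group. The log2 fold change with age in swim-tunnel fish was 1.08 (SE 0.18, adjusted p = 0.000247, edgeR). With swimming at 9 weeks it was 0.59, which did not pass (SE 0.20, adjusted p = 0.19, edgeR). The third by the naming rule, of 11217 bases, rose from 169.6 ± 23.3 CPM to 316.5 ± 92.0 CPM (mean ± SD, n = 5 and n = 10), with a log2 fold change of 0.90 with SE 0.19 (adjusted p = 0.00154, edgeR). At 27 weeks libraries 1 to 5 had 321.1 to 466.7 CPM and libraries 6 to 10 had 184.9 to 292.6 CPM. Its log2 fold change was 0.51 without libraries 1 to 5 and 1.17 without libraries 6 to 10. Against unexercised fish it was 0.66, and 0.26 without libraries 1 to 5, which did not pass.

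Nfu_g_1_000330, of 11076 bases, fell most. It stood at 211.4, 128.1, 135.0, 230.1 and 173.3 CPM without exercise and at 147.5, 163.6, 272.1, 255.7 and 237.7 CPM with swimming at 9 weeks. At 27 weeks libraries 1 to 5 had 42.5 to 62.1 CPM and libraries 6 to 10 had 101.1 to 161.3 CPM, so that library 6 alone overlapped the 9-week range. The log2 fold change in swim-tunnel fish was -1.35 (SE 0.27, adjusted p = 0.000863, edgeR). It was -0.89 without libraries 1 to 5 and -2.05 without libraries 6 to 10.

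Nfu_g_1_003981, of 18090 bases, fell without any overlap. It stood at 310.8, 273.5, 281.2, 339.5 and 280.7 CPM without exercise and at 226.8, 239.7, 259.2, 381.8 and 317.0 CPM with swimming at 9 weeks. At 27 weeks it ran from 97.9 to 186.0 CPM with a median of 126.1 CPM. The log2 fold change in swim-tunnel fish was -1.09 (SE 0.17, adjusted p = 0.000129, edgeR). The member of 11078 bases fell from 371.7 ± 75.6 CPM to 183.8 ± 33.5 CPM (mean ± SD, n = 5 and n = 10), with a log2 fold change of -1.02 with SE 0.14 (adjusted p = 5.63e-05, edgeR). In both, libraries 1 to 5 were lower than libraries 6 to 10.

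Few members had no overlap between the ages. In swim-tunnel fish, 3 members were higher and 11 lower in all 27-week libraries, or 2.00% and 7.33%, against 2.58% and 6.23% of all tested genes and 3.11% and 13.0% of genes of like CPM. The calls held in part across the sets of 27-week libraries. Of the 43 members that fell, 25 were called lower without libraries 1 to 5 and 42 without libraries 6 to 10, and 24 in both of these fits, which share the 9-week libraries. Of the 15 that rose, 10, 14 and 9 were. How many calls of other genes held in these fits is not given here, so this is no trait of the members. Without libraries 1 to 5, 16 members were called higher and 40 lower, or 10.7% and 26.7%. Beside them stood 16.4% and 22.9% of genes of like CPM, and 9.95% and 13.5% of all tested genes. Without libraries 6 to 10 the counts were 20 and 67, or 13.3% and 44.7%, beside 15.3% and 51.7% of genes of like CPM. Of all tested genes, 22.4% and 28.1% were called there. Against genes of like CPM, the members' share called lower was thus above in the first fit and below in the second. By classes of level per kilobase, like genes gave 10.2% higher and 18.2% lower in the first fit. In the second they gave 22.1% and 37.8%. The members' share called lower was above that of these genes in both fits. The members' share called higher was near it in the first and below it in the second.

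Against unexercised 9-week fish, where age and swimming differ together, 17 members rose and 48 fell by 27 weeks (edgeR adjusted p under 0.05), or 11.3% and 32.0%. Of all tested genes 21.2% were called higher and 18.9% lower, and of the remaining genes weighted to the members' abundance classes 15.2% and 37.4%. The median log2 fold change of the members was -0.19 and their median difference from genes of like CPM was -0.02. This difference ran from -0.08 to 0.04 with each single library left out in turn. It was -0.07 when 27-week libraries 1 to 5 were left out and 0.03 when libraries 6 to 10 were, so its sign turned here as well. The counts were then 13 higher and 46 lower, beside 16.4% and 29.5% of like genes, and 25 and 72, beside 17.0% and 55.2%. Of all tested genes, 12.0% and 14.4% were called in the first of these fits and 27.1% and 29.0% in the second. With all libraries and classes of level per kilobase the difference was -0.16, where the weighted shares were 18.9% higher and 25.8% lower. With these classes it was -0.14 without libraries 1 to 5, beside 11.7% and 19.7%. Without libraries 6 to 10 it was -0.17, beside 25.6% and 38.2%. In all 27-week libraries 6 members were higher and 24 lower than in all unexercised ones, against 5.31% and 8.19% of all tested genes and 6.47% and 20.6% of genes of like CPM. This comparison shares the 27-week libraries with the one above, and 11 of the rising and 35 of the falling members were called in both.

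The member of 10951 bases rose most here, from 25.1 ± 8.22 CPM to 85.2 ± 41.7 CPM (mean ± SD, n = 5 and n = 10), with a log2 fold change of 1.76 with SE 0.33 (adjusted p = 0.000409, edgeR). Nfu_g_1_010744 and Nfu_g_1_003144 followed with 1.67 (SE 0.19, adjusted p = 4.35e-06, edgeR) and 1.50 (SE 0.20, adjusted p = 1.59e-05, edgeR). The member of 12207 bases fell most, from 57.8 ± 7.01 CPM to 22.8 ± 6.59 CPM (mean ± SD, n = 5 and n = 10), with a log2 fold change of -1.34 with SE 0.19 (adjusted p = 3.13e-05, edgeR). At 27 weeks it had 14.5 to 20.7 CPM in libraries 1 to 5 and 26.3 to 31.3 CPM in libraries 6 to 10. Its log2 fold change was -1.03 without libraries 1 to 5 and -1.81 without libraries 6 to 10. The member of 11916 bases fell by 1.30 on the log2 scale (SE 0.28, adjusted p = 0.00134, edgeR). In the same left-out fits its log2 fold change was -0.88 and -1.95. The member of 25742 bases, the sixth longest, fell by 1.26 (SE 0.16, adjusted p = 1.11e-05, edgeR). It stood at 229.6, 174.8, 234.9, 178.2 and 186.4 CPM without exercise, and its highest 27-week library had 126.37 CPM.

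Taken per library, the members' deviation from like genes overlapped between all groups. It was the median, over the members, of the log2 CPM deviation from the 20-library mean, read against the remaining genes of the same abundance class. It ran from -0.19 to 0.12 without exercise, from -0.05 to 0.05 with swimming at 9 weeks and from -0.19 to 0.15 at 27 weeks. The 27-week range was made up of libraries 1 to 5 at -0.03 to 0.15 and libraries 6 to 10 at -0.19 to -0.01. Without the comparison to like genes, the median deviation of the members was 0.11 ± 0.11 (SD, n = 5), 0.08 ± 0.08 (SD, n = 5) and -0.10 ± 0.10 (SD, n = 10) in these groups, and that of the remaining genes was 0.06 ± 0.04, 0.06 ± 0.07 and -0.07 ± 0.07. The median SD of a member between libraries of a group was 0.19 without exercise, 0.23 with swimming and 0.30 at 27 weeks in log2 CPM, against 0.21, 0.24 and 0.34 for the remaining genes. The 27-week value includes the difference between the sets of libraries. Within libraries 1 to 5 the members' median SD was 0.19, and within libraries 6 to 10 it was 0.18, against 0.19 and 0.23 for the remaining genes.

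**Figure D5:**
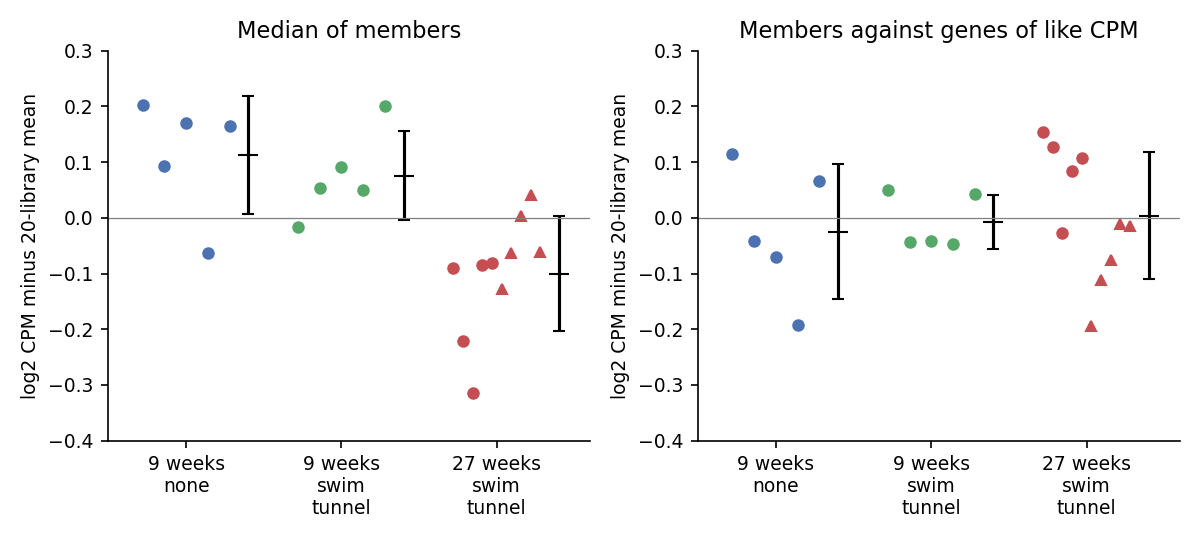
Median deviation of the 150 members from their 20-library mean in log2 CPM (left) and the same read against remaining genes of like CPM (right), one point per library with group means and SDs; triangles are 27-week libraries 6 to 10. On the right all groups overlap, and 27-week libraries 1 to 5 (-0.03 to 0.15) lie mostly above libraries 6 to 10 (-0.19 to -0.01).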

How the data were processed

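RNA was prepared with the TruSeq RNA kit v2, per the labels' protocols. The tools in the submitters' processing notes are featureCounts 1.4.6-p4, STAR 2.4.1d and bcl2fastq 1.8.4, with no role given. The authors deposited raw counts per gene and RPKM values; the sources used here do not give build, annotation or strand setting. Overlapping or near-identical genes could therefore not be told apart. The library totals behind the deposited RPKM values run on down the rows of the table instead of following its columns, so RPKM served only for the floor of 1 and for lengths. Lengths with totals so assigned differed by at most 0.213% for members, and the same 150 genes resulted. For this the floor of 1 was kept on the deposited RPKM values, so its effect on membership was not examined with corrected totals. The median SD of a member's implied length over libraries fell from 17.4% to 0.0084% of its length.

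Tests on the counts used edgeR 4.0.16 under R 4.3.3 (filterByExpr with a minimum count of 10, TMM scaling, robust quasi-likelihood fit of all 3 groups, two-sided contrasts, Benjamini-Hochberg adjustment over 16653 genes, threshold 0.05), tested on simulated data. The standard error is the absolute log2 fold change over the square root of F. Log2 CPM used a prior count of 2. All 150 members passed the filter. Groups came from the labels, and libraries are numbered in the order in which they are listed, as names only. Libraries of 1 group differed by at least 29.6 in chi-square per degree of freedom, so none was a duplicate. Members named are the 5 longest, the 5 most abundant in CPM and, per comparison, the 3 called members with the largest fold change in each direction provided that the higher group averaged at least 5 CPM and that at most 1 library overlapped. Of 38 marker symbols none could be looked up. Members and lists were chosen with earlier results of these data known. Alternatives were DESeq2 1.42.0, other scalings, filters, member rules, classes and left-out libraries.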

Additional observations from a re-analysis of the deposited data

Results flagged for a closer look

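In 69 groups of 5 or 10 libraries (5 measures over the members and the levels of the named members, in each of the 3 groups), 4 had an end library whose gap to its neighbour, relative to the whole range, passed Dixon's limit. About 1 in 20, or 3.45, would do so by chance. Swim-tunnel 9-week library 2 held 3.44% of its counts in the 5 most abundant members, against 3.98% to 4.17% in the other 4. The same library had 45.3 CPM of the 11916-base member, against 65.4 to 73.1 CPM. Unexercised library 4 had 122.2 CPM of the 25927-base member, against 184.7 to 206.7 CPM. In 27-week library 1 the 28410-base member stood at 280.5 CPM, against 150.6 to 214.9 CPM in the other 9.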

How the results depend on the processing

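No paired analysis was possible because the labels carry no replicate numbers. With each library left out in turn, the members called ran from 12 to 17 higher and 31 to 46 lower for age in swim-tunnel fish, from 13 to 20 and 40 to 52 against unexercised fish, and stayed at 0 and 0 for swimming at 9 weeks. For swimming, 2 were called higher and 3 lower without 27-week libraries 1 to 5 and again without libraries 6 to 10. The 27-week libraries enter that fit through the low-count filter, the scaling and the shared spread. Of genes of like CPM, 1.39% and 2.20% were called in the first of these fits and 1.79% and 3.15% in the second. Of all tested genes, 1.16% and 0.883% were called in the first and 1.88% and 1.29% in the second. DESeq2 called 1 and 1 (like genes 1.67% and 1.93%), and a fit of only the compared groups 0 and 2 (0.777% and 1.01%). The latter fit called 0.576% and 0.479% of all tested genes. Without libraries 6 to 10, 67 members were called lower with age in swim-tunnel fish (44.7%, like genes 51.7%), their difference from genes of like CPM was 0.10, and the median against unexercised fish was -0.30. At a threshold of 0.01, 8 rose and 25 fell in swim-tunnel fish, or 5.33% and 16.7%. Beside them stood 6.89% and 20.6% of like genes, and 6.95% and 10.6% of all tested genes. Fewer or more members change the counts by construction, and the shares moved as well. The 100 longest gave 8 higher and 33 lower in swim-tunnel fish, or 8% and 33% (like genes 12.2% and 30.1%). Against unexercised fish they gave 10 and 39, or 10% and 39% (15.2% and 37.0%). The 300 longest gave 28 higher and 78 lower, or 9.33% and 26% (12.2% and 31.2%). Against unexercised fish they gave 40 and 89, or 13.3% and 29.7% (15.2% and 37.6%). The share called lower was thus above that of like genes for the 100 longest and below it for the 300 longest. Of all tested genes, 14.8% and 16.8% were called in swim-tunnel fish and 21.2% and 18.9% against unexercised fish. Members with no overlap between groups, a setting chosen after seeing the data in which fewer libraries make overlap rarer, were 6 higher and 24 lower in swim-tunnel fish without libraries 1 to 5 (like genes 11.2% and 16.0%) and 11 and 50 without libraries 6 to 10 (11.5% and 37.5%). Against unexercised fish they were 13 and 35 (12.6% and 23.6%), and 20 and 55 (14.2% and 44.1%). Of all tested genes, 5.79% and 8.88%, and 16.0% and 19.3%, had no overlap in swim-tunnel fish in these fits. Against unexercised fish 8.76% and 10.2%, and 21.2% and 22.0%, had none. With classes by level per kilobase the difference from like genes was -0.16 against unexercised fish. The shares of counts without exercise, with swimming and at 27 weeks were 4.74%, 4.92% and 3.87% for the 100 longest and 7.24%, 7.43% and 6.01% for the 300 longest. They were 4.84%, 5.02% and 3.97% with the floor on mean RPKM, which shared 102 members with the main rule. Without the 50 most abundant genes, 5 of them members, they were 4.48%, 4.61% and 3.98%. In all 4 of these settings the 27-week share was the lowest of the 3 groups. Beyond this the cause of each move was not tested. No called fold change of a named member changed sign in any alternative.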

Other observations

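The 150 shortest genes by the same ranking, set beside the longest without a test, held 0.283% ± 0.0170 (SD, n = 5) of counts without exercise, 0.257% ± 0.0218 (SD, n = 5) with swimming at 9 weeks and 0.275% ± 0.0230 (SD, n = 10) at 27 weeks. Their median log2 fold change with age in swim-tunnel fish was 0.01, and their median difference from genes of like CPM was 0.04. Per library that difference lay between -0.04 and -0.01 in 27-week libraries 1 to 5 and between 0.04 and 0.09 in libraries 6 to 10, the opposite order to that of the longest genes. Of the 150 longest, 8 carried an identifier within 5 numbers of another member.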
